A study of Melospiza melodia with 33 samples.

Results

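The blood transcriptome at rest was described in 10 libraries of the song sparrow, Melospiza melodia, out of 33 in the series. They were chosen by their titles, which give no stimulus and baseline. Each came from the whole blood of a different free-living adult male of Linesville, Pennsylvania, that had no behavioural trial; the other birds of the study heard simulated territorial intrusions with recorded song and are not used here. No genotype, exact age or time of sampling is given in the labels. Total RNA was treated with DNase, enriched for poly(A) mRNA, made into libraries with a KAPA HyperPrep kit and sequenced as paired ends on a NovaSeq X Plus, with no removal of haemoglobin transcripts. All 10 libraries carry the same batch label, and that of bird 8446 has files of 2 lanes in place of 3.

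Bird blood differs from mammalian blood in that red cells and thrombocytes keep their nuclei. Red cells, by far the most numerous, make haemoglobin from globin and haem, carry a spectrin and ankyrin skeleton under their membrane and take up iron through the transferrin receptor. Thrombocytes do the clotting work of mammalian platelets, heterophils stand in for neutrophils, and monocytes, eosinophils, basophils and T and B lymphocytes complete the picture. A whole-blood library mixes all of these, so that fewer cells of a type and less RNA per cell cannot be told apart in any value below.

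The libraries held 74.2 to 103.7 M counts (mean 84.6 ± 8.16 M, SD, n = 10), and 14125 to 15315 of 21141 gene rows had at least 1 count. A row was counted in all 10 birds for 12009 genes and in none for 3501. Values are CPM, counts per M of library size, with the size scaled by the trimmed mean of M-values (TMM), and the coefficient of variation (CV) is the SD over the mean of CPM across the 10 birds. With 1 library per bird, differences between birds and between repeat libraries of a bird cannot be told apart. Of all rows, 8964 had a mean CPM of at least 1, and 7516 of these carried a symbol. Counts were not corrected for transcript length, so ranks below are ranks of counts, and levels are compared between birds within a gene.

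Birds 8450 and 8448 stood apart from the others. Among the other 8 birds, Spearman's rho of log2 CPM across the 8964 genes lay between 0.944 and 0.961 in all 28 pairs. Bird 8450 had a median rho of 0.879 with the other birds and bird 8448 one of 0.919. Principal component 1, with 29.9% of the variance, separated bird 8450, and component 2, with 15.9%, separated bird 8448. Bird 8450 held the highest value of 22.7% of the genes and the lowest of 29.7%, where an even spread over birds gives 10%. Bird 8448 held the highest of 17.2% and the lowest of 13.4%. Counts below of list members that were highest or lowest in these birds are to be read beside these shares. Where leaving out a single bird moved the CV of a named gene by over 1.5 times, the CV without that bird stands beside it, keeping the scaling and the genes of all 10. The TMM factor of bird 8450 was 1.301, against 0.904 to 1.11 in the others. With plain library totals in place of TMM, the median over all genes of log2 CPM over the gene's median was 0.22 in bird 8450, against −0.10 under TMM.

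The libraries matched their label of whole blood as far as the defining markers could be read. SLC4A1, the band 3 anion exchanger of red cells, and TFRC, the transferrin receptor, were present in every bird at no less than 1811 and 1227 CPM. All 5 defining thrombocyte markers had a mean CPM of at least 1. So did 2 of 2 heterophil, 2 of 4 monocyte, 2 of 2 T cell, 3 of 4 B cell and 2 of 2 cytotoxic markers among those with a row. Of all rows, 42.4% did, so the monocyte count lies near that share. The cytotoxic marker EOMES had a median of 0.761 CPM and reached 9.71 in bird 8448. The monocyte marker MARCO averaged 0.0777 CPM and the B cell factor EBF1 0.856. ALAS2, GATA1, KLF1, CEBPE, CYBB, S100A9, CD14, CD3E, CD3D, ZAP70, MS4A1, GZMA and PRF1 have no row under these symbols in the tables used here and were not analysed here.

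A handful of genes took a large part of the counts. LOC134426298 held 13.4% ± 2.90 of a library, LOC134431771 11.6% ± 2.79 and LOC134426297 5.96% ± 1.198 (SD, n = 10). These 3 were on top, in this order, in all 10 birds. They have no product name in the gene table used here, and which rows hold the globins is not annotated there. LOC134426298 and LOC134426297 are neighbours, next to PGAP6. Together the 3 held 15.05% of the counts of bird 8450, a median of 32.8% over the 10 birds and 39.8% in bird 8449. The second lowest bird, 8442, stood at 26.5%. By the rule used below for a bird that stands apart, the gap between birds 8450 and 8442 fell just short. Without bird 8450 the mean was 32.7% ± 4.13, against 31.0% ± 6.82 over all 10.

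**Figure D1:**
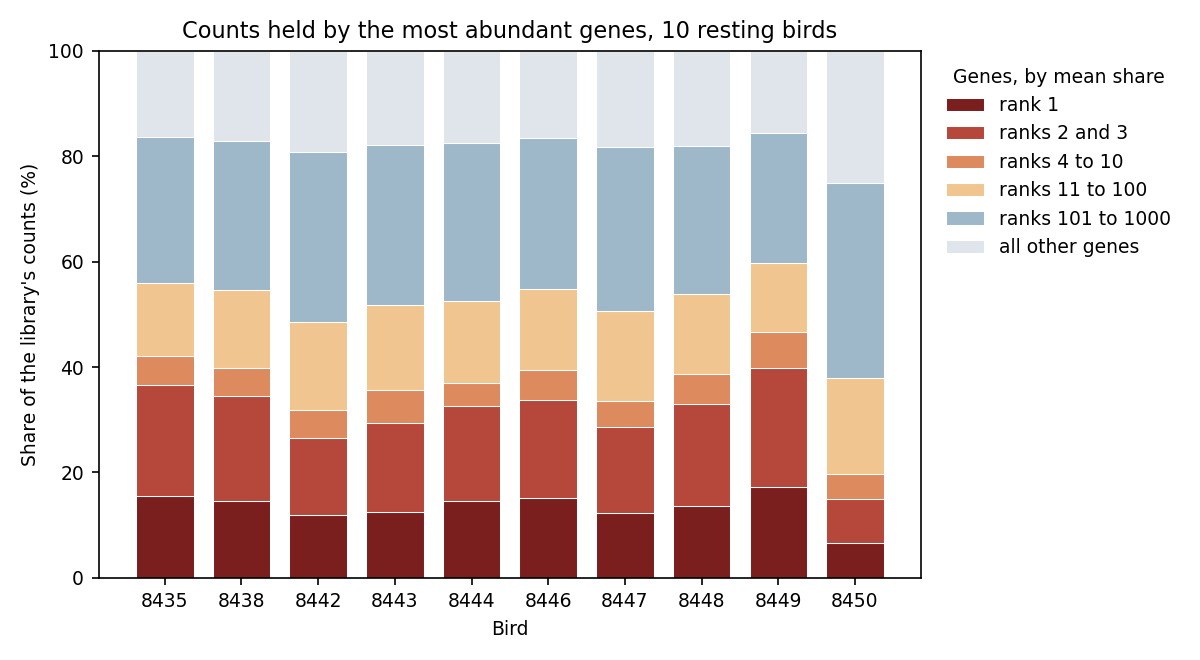
Share of each library's counts (%, vertical axis) held by genes grouped by their mean share, for each of the 10 birds. The 3 most abundant genes, the 2 darkest segments together, held 15.05% of the counts in bird 8450 and 26.5% to 39.8% in the other birds.

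Counts were concentrated further down the ranks as well: 36.5% ± 7.24 fell on the first 10 genes, 52.0% ± 5.81 on the first 100 and 81.8% ± 2.67 on the first 1000 (SD, n = 10). The share of the first 10 ranged from 19.7% in bird 8450 to 46.7% in bird 8449 (38.3% ± 4.48 without bird 8450). Of these 10, 8 are LOC rows. LOC134417358, next to GCAT, was the fourth with 1.73% ± 0.316, and LOC134427256 followed with 0.941% ± 0.184. LOC134429932 took 0.705% ± 0.469 and was uneven: it held 0.000559% of the counts of bird 8444, 0.482% to 1.05% in the birds between and 1.81% in bird 8449. In bird 8444 it ranked 5435, while in the other 9 birds it stood between rank 5 and rank 9. CREG1, a lysosomal glycoprotein and the last of the 10, took 0.453% ± 0.0691.

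Named genes below these were largely of red cells and of protein turnover. SKP1, a subunit of ubiquitin ligases, TFRC, MLF1, a haematopoietic factor, and ANK1, the ankyrin that ties band 3 to spectrin, took ranks 12 to 15. SLC4A1, the spectrin SPTAN1, EPB41, the protein 4.1 of the membrane skeleton, NCOA4, the receptor that sends ferritin to lysosomes, and UBE2H, a ubiquitin-conjugating enzyme, stood among the first 40, 29 of which are symbols. ATRX, a chromatin remodeller, took rank 11 through a single bird. It held 1.67% of the counts of bird 8450 and 0.217% to 0.363% in the other 9, at 2058, 2419 and 12852 CPM (lowest, median and highest bird) with the second highest bird at 3605 CPM. Its CV was 0.929 over 10 birds and 0.176 without bird 8450. Below the first few genes the order differed between birds: TFRC ranked 6 in birds 8444 and 8447 and 69 in bird 8450. In all, 5 genes were in the top 10 of every bird, 18 in the top 10 of any bird, and 45 in the top 100 of every bird.

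Genes varied among resting birds by a median CV of 0.340, with 5% of genes below 0.149 and 5% above 1.00. The CV that counting alone gives, 1 over the root of the mean count, had a median of 0.0320 and was thus much smaller. A CV under 0.2 was found in 1349 genes (15.05%), and a CV of at least 1, an SD as large as the mean, in 454 (5.06%). Variation was larger in genes with fewer counts. The median CV was 0.444 in the 4253 genes of 1 to 10 CPM, 0.279 in the 3381 of 10 to 100, 0.241 in the 1228 of 100 to 1000 and 0.239 in the 102 above 1000 CPM. Counting gave 0.0604 in the first of these bands and 0.00270 in the last. Birds 8450 and 8448 weighed on these values. The median CV was 0.289 without bird 8450, 0.317 without bird 8448 and 0.264 without both, and the genes with a CV of at least 1 numbered 238, 403 and 183. Of the 454 such genes, 227 had their highest value in bird 8450 and 84 in bird 8448.

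**Figure D2:**
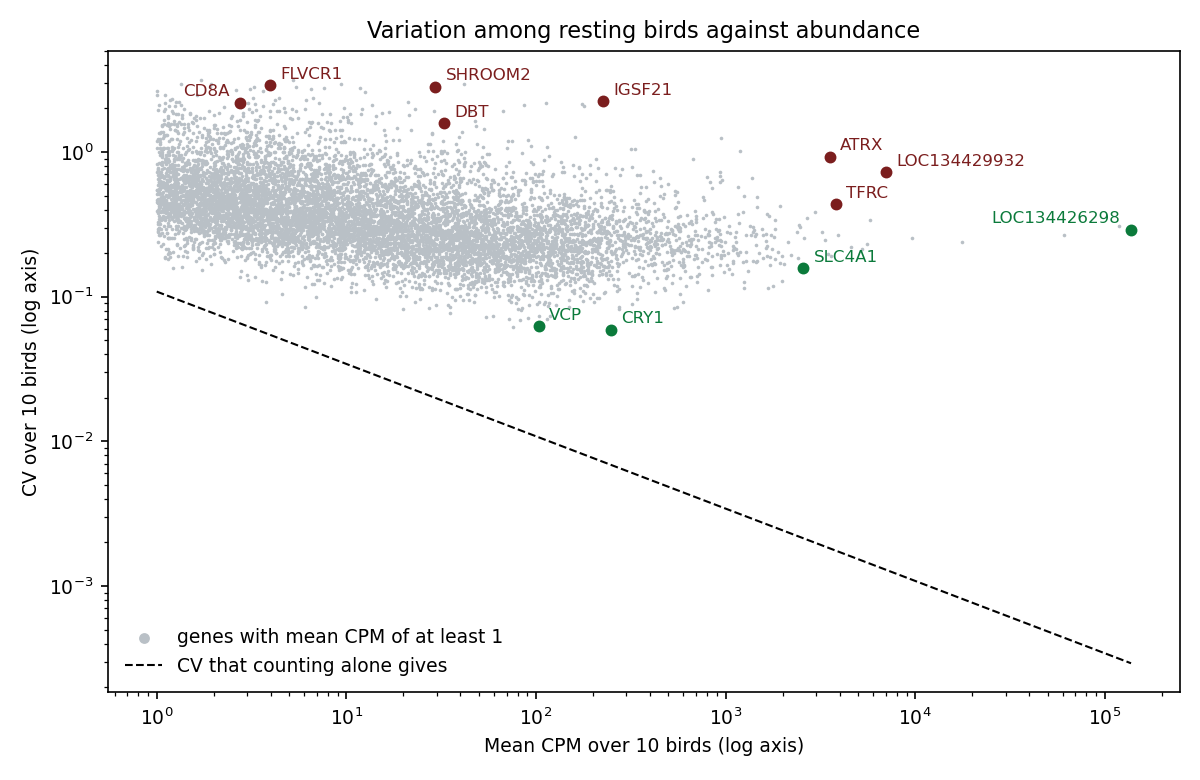
CV over 10 birds (vertical, log axis) against mean CPM (horizontal, log axis) of 8964 genes in grey, with 12 named genes in colour; the dashed line is the CV that counting alone gives. CRY1 at 0.0591 and SHROOM2 at 2.83 lie near the lower and upper edge, and the median falls from 0.444 in the band of 1 to 10 CPM to 0.239 above 1000 CPM.

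Red cell membrane and skeleton genes were among the more even of the 25 lists, though not more even than genes of like counts. Of 30 symbols in the list, 25 had a row and 20 a mean CPM of at least 1, and their median CV was 0.265, against 0.340 over all genes. The median member averaged 562.8 CPM, and all genes of 100 to 1000 CPM had a median CV of 0.241. SLC4A1 ran from 1811 to 3182 CPM with a median of 2599.9 (mean 2569.7 ± 404, CV 0.157, SD over n = 10). Bird 8448 was the lowest and bird 8447 the highest, within less than a doubling. ANK1 ran from 2739.9 to 4984 CPM with a median of 3385 (CV 0.196), and SPTAN1, a spectrin alpha chain, ran from 1842 to 4117 CPM with a median of 2361 (CV 0.256). ANK1 peaked in bird 8447 and SPTAN1 in bird 8444. TPM3, a tropomyosin of the actin filaments, had the smallest CV of the list at 0.148 (0.0526 without bird 8450), with bird 8450 at 88.3 CPM and the next at 142.

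RHAG, the Rh-associated glycoprotein, ran from 472 to 2011 CPM with a median of 1224 (CV 0.385), and EPB42, which binds band 3, ran from 326 to 1165 CPM with a median of 841 (CV 0.268, 0.166 without bird 8450). Both were lowest in bird 8450 and highest in bird 8444. SPTBN1, the spectrin beta chain used by most other cells, had the largest CV at 0.757, with 39.7 CPM in bird 8448, 19.2 in the second bird and a median of 10.1 (0.428 without bird 8448). STOM, stomatin, ran from 1.97 to 12.1 CPM with a median of 3.33 (CV 0.695) and peaked in bird 8435. SLC14A1, a urea transporter, had 0 counts in all 10 birds, where a count of 0 allows up to 0.00352 CPM over the 10 libraries (3 counts, counting error only). The summed level of the 20 members was 14750.5 CPM in bird 8450 and 15054 in bird 8448, against a median of 17452 and 24235 in bird 8444. Of the members, 10 of 20 had their lowest value in bird 8450.

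Haem synthesis and breakdown genes spread more widely. Of 21 symbols, 19 had a row, all with a mean CPM of at least 1, and the median CV was 0.308. BLVRB, a biliverdin reductase, ran from 287 to 871 CPM with a median of 489 (CV 0.41), with birds 8442 and 8450 high and bird 8444 low. SLC25A38, the mitochondrial glycine carrier that feeds haem synthesis, ran from 145 to 492 CPM with a median of 298 (CV 0.341). FECH, ferrochelatase, which puts iron into haem, ran from 62.6 to 386 CPM with a median of 201 (CV 0.441). Bird 8450 was lowest for both. ALAS1, the housekeeping form of the first enzyme, averaged 1.21 ± 0.352 CPM. FLVCR1, a transporter first described as a haem exporter, had the largest CV of any list member above 1 CPM: it stood at 36.3 CPM in bird 8448 and at most 0.479 in the other 9, so the CV was 2.89 over 10 birds and 0.401 without bird 8448. FLVCR1 passed the filter on the mean through bird 8448 alone. Of the 19 members, 10 were lowest in bird 8450.

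Iron genes showed the same bird at the low end. All 11 members with a row had a mean CPM of at least 1, with a median CV of 0.295, and 0.171 without bird 8450. TFRC ran from 1227 to 6198 CPM with a median of 3977 (mean 3816 ± 1655, CV 0.434). Birds 8450, 8448 and 8443 were low, and birds 8444 and 8447 high. NCOA4 ran from 627 to 2581 CPM with a median of 1836 (CV 0.295, 0.182 without bird 8450). SLC40A1, ferroportin, the iron exporter, ran from 362 to 1074 CPM with a median of 679.8 (CV 0.36). STEAP3, the ferrireductase of the transferrin cycle, spread the most (4.95, 20.0 and 43.9 CPM (lowest, median and highest bird), CV 0.511), and IREB2, an iron regulatory protein, the least (CV 0.159). Of the 11 members, 8 were lowest in bird 8450, and the summed level was 4301 CPM there, against a median of 9257 and 12232 in bird 8444.

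Regulators of the red cell lineage had a median CV of 0.287 in 14 members above 1 CPM, of 16 with a row and 22 listed. JAK2, the kinase that signals for the erythropoietin receptor, ran from 1055 to 2518 CPM with a median of 1519.9 (CV 0.27), highest in bird 8446. BNIP3L, the mitophagy receptor that clears mitochondria from maturing red cells of mammals, ran from 811 to 2344 CPM with a median of 1514 (CV 0.295), highest in bird 8444. TAL1 (CV 0.198) and LMO2 (CV 0.261), partners in the transcription complex of early red cells, averaged 905 and 449.9 CPM. KLF13 was the most even member (CV 0.195). ZFPM1, a cofactor of GATA factors, stood at 23.3 CPM in bird 8450 and at most 9.06 in the others (CV 0.665, 0.254 without it), and BCL11A, a repressor of globin genes in mammals, ran from 2.48 to 10.6 CPM with a median of 4.02 (CV 0.556). With plain library totals in place of TMM, bird 8450 kept the lowest median over members of log2 CPM over the gene's median in the membrane, haem, iron and regulator lists, but by a narrow margin in some. In the membrane list it stood at −0.12, against −0.11 in the next bird, where TMM gave −0.51 and −0.19. In the regulator list it stood at −0.24, against −0.21, where TMM gave −0.71 and −0.31. The haem list kept −0.50, against −0.31 in the next bird, and the iron list −0.53, against −0.14.

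Thrombocyte genes were present in every bird and of middling evenness. The list had 29 rows of 34 symbols and 26 members above 1 CPM, with a median CV of 0.333. GP1BB, a chain of the receptor for von Willebrand factor, ran from 211 to 651 CPM with a median of 423 (CV 0.279), and TUBB1, the beta tubulin of the platelet rim, ran from 75.3 to 219 CPM with a median of 144 (CV 0.286). Both were lowest in bird 8450 and highest in bird 8444. F13A1, a clotting factor subunit, was the most even with a CV of 0.199 (171, 256 and 356 CPM (lowest, median and highest bird)). ITGA2B, the alpha chain of the fibrinogen receptor, ran from 10.2 to 35.6 CPM with a median of 16.03 (CV 0.456), and GP9 ran from 5.14 to 20.7 CPM with a median of 6.65 (CV 0.617), with bird 8450 highest for both.

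ITGB3, the beta chain of that fibrinogen receptor, did not share the order of its partner. It stood at 203 CPM in bird 8435, where ITGA2B was at its lowest, and at most 62.7 in the others (CV 0.969, 0.329 without bird 8435). SRGN, the proteoglycan serglycin of secretory granules, ran from 3.73 to 78.3 CPM with a median of 17.1 (CV 0.888). It was highest in bird 8448 and lowest in bird 8450. Members of the list peaked mostly in the 2 birds that stood apart, 10 of 26 in bird 8450 and 8 of 26 in bird 8448. The summed level ran from 1147 CPM in bird 8443 to 1679 in bird 8444. It rests on a few members, since the highest averaged 428 CPM and the median member 18.4. By the median over members of log2 CPM over the gene's median, bird 8446 stood at −0.45, bird 8448 at 0.48 and bird 8450 at 0.35.

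**Figure D3:**
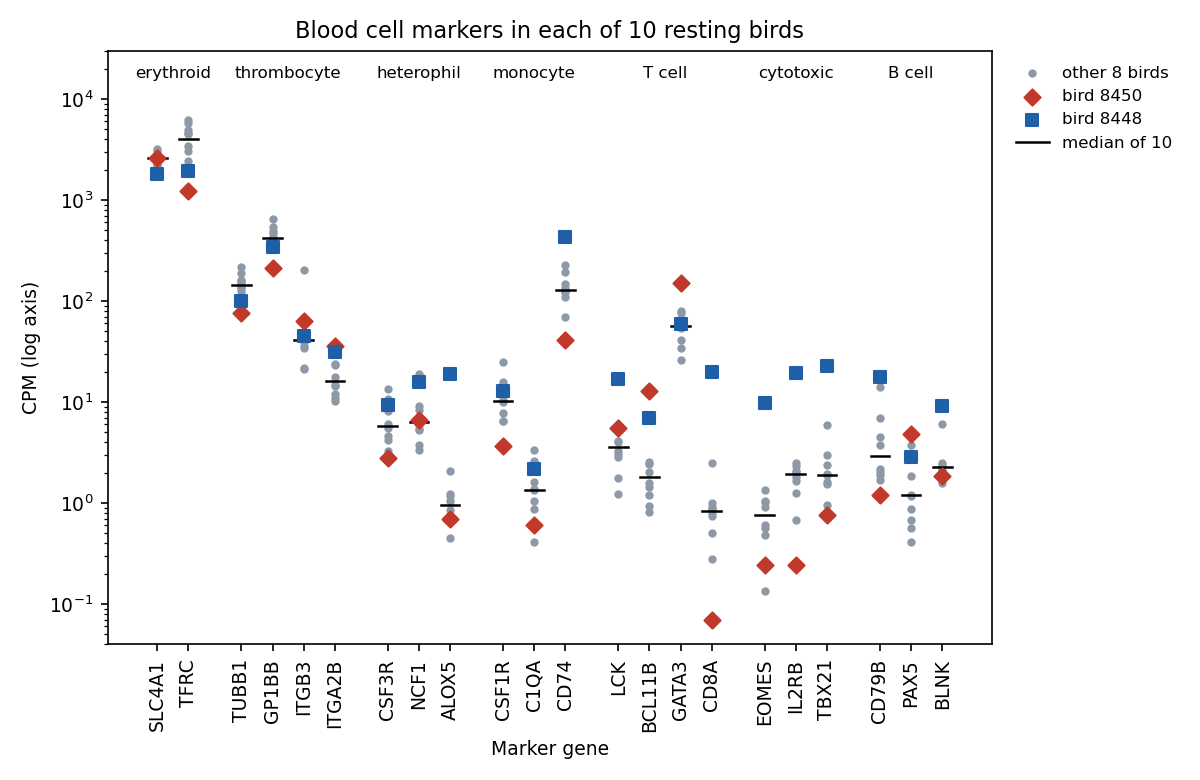
CPM (vertical, log axis) of 22 blood cell markers in each of 10 birds, with the median as a black line, bird 8450 as red diamonds, bird 8448 as blue squares and the other 8 birds in grey. CD8A, EOMES and IL2RB stand in bird 8448 at 9.71 to 19.9 CPM, above the other 9 birds, while CD8A, IL2RB, CSF3R and CD79B are lowest in bird 8450.

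Heterophil markers were few and varied more. Only 16 of 32 symbols had a row, and the 15 above 1 CPM had a median CV of 0.631 (0.458 without birds 8450 and 8448). RAC2, a GTPase of the oxidase complex, ran from 21.1 to 69.1 CPM with a median of 26.8 (CV 0.45, 0.208 without bird 8448), and ITGB2, the beta-2 integrin chain of leukocytes, ran from 3.89 to 53.3 CPM with a median of 14.0 (CV 0.793, 0.462 without bird 8448). Bird 8448 was highest for both. CSF3R, the receptor for granulocyte colony-stimulating factor, ran from 2.80 to 13.5 CPM with a median of 5.76 (CV 0.515), and was highest in bird 8449. NCF1, an oxidase subunit, ran from 3.36 to 19.1 CPM with a median of 6.31 (CV 0.631), and was highest in bird 8443. ALOX5, the lipoxygenase that starts leukotriene synthesis, stood at 19.0 CPM in bird 8448 and at most 2.09 in the others (CV 2.04, 0.479 without bird 8448). GFI1, a transcriptional repressor that acts in granulocyte development, had a CV of 1.25 (0.445 without bird 8448). LTA4H, a later leukotriene enzyme, was the most even (CV 0.248). Members were lowest in bird 8450 in 7 of 15 cases and highest in bird 8448 in 6. The summed level was 239.7 CPM in bird 8448, 175.0 in bird 8449 and at most 117.0 in the other 8.

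Monocyte markers had 14 members above 1 CPM, of 19 with a row, and a median CV of 0.515 (0.451 without bird 8450). CTSB, a lysosomal protease made by many cells, ran from 76.0 to 357 CPM with a median of 183 (CV 0.394). CD74, the invariant chain of MHC class II, which B cells make too, ran from 40.8 to 426 CPM with a median of 129 (CV 0.677, 0.441 without bird 8448). CSF1R, the receptor that defines the monocyte lineage, ran from 3.68 to 24.6 CPM with a median of 10.2 (CV 0.535), and the complement chain C1QA ran from 0.409 to 3.34 CPM with a median of 1.35 (CV 0.603). Bird 8449 was highest for both of the last, whereas CD74 peaked in bird 8448. LGMN, a lysosomal endopeptidase, stood at 12.9 CPM in bird 8435 and at most 3.55 in the others (CV 1.09, 0.451 without bird 8435), and FCER1G, an Fc receptor chain, at 9.03 in bird 8450 and at most 3.51 (CV 0.741, 0.273 without it). LY96 was the most even (CV 0.151). Of 14 members, 9 were lowest in bird 8450, and this bird stayed the lowest by the list's median with plain library totals.

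Lymphocyte and cytotoxic markers had the largest median CVs of the 25 lists over 10 birds. T cell markers, 20 above 1 CPM of 23 with a row and 33 listed, had a median CV of 0.828, cytotoxic markers, 6 of 8 and 18, one of 1.49, and B cell markers, 18 of 21 and 29, one of 0.801. In bird 8448, 17 of 20 T cell, 6 of 6 cytotoxic and 8 of 18 B cell markers had their highest value. This bird held the highest value of 17.2% of all genes. A member could pass the filter on the mean through this bird alone, as EOMES did with a mean of 1.61 and a median of 0.761 CPM. Such members can raise both these counts and the median CVs over 10 birds. Without birds 8450 and 8448 the medians were 0.533 for T cell, 0.470 for cytotoxic and 0.788 for B cell markers, against 0.264 over all genes and 0.336 over all genes of 1 to 10 CPM. The cytotoxic list then lay below the interferon response list, at 0.482.

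CD8A, a chain of the co-receptor of cytotoxic T cells, stood at 19.9 CPM in bird 8448, at most 2.49 in the other 9 and 0.0687 in bird 8450 (CV 2.20, 0.807 without bird 8448). CD8B, its partner chain, followed with 20.0 CPM in bird 8448 and at most 2.96 elsewhere. TBX21, EOMES and IL2RB, the T-bet and eomesodermin factors and an interleukin receptor chain of cytotoxic and natural killer cells, stood at 22.9, 9.71 and 19.6 CPM in bird 8448. In the other 9 birds they reached at most 5.98, 1.34 and 2.46 CPM. LCK, the kinase of the T cell receptor, ran from 1.22 to 17.1 CPM with a median of 3.61 (CV 0.942, 0.416 without bird 8448) with the same bird on top. Bird 8448 thus lay above the range of the rest in all 6 of these genes.

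GATA3 and BCL11B, transcription factors of the T lineage, were instead highest in bird 8450. GATA3, also made by other cells, ran from 25.8 to 150.4 CPM with a median of 56.9 (CV 0.543, 0.334 without bird 8450), and BCL11B ran from 0.821 to 12.7 CPM with a median of 1.81 (CV 1.15), second highest in bird 8448 at 6.88 CPM. Of the 20 T cell markers, 7 had their lowest value in bird 8450, which held the lowest value of 29.7% of all genes. PRKCQ, a protein kinase C of T cells, was the most even (CV 0.298).

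Among B cell genes, CD79B, a chain of the receptor complex, ran from 1.198 to 17.8 CPM with a median of 2.95 (CV 1.03), with birds 8448 and 8443 high. PAX5, the factor that holds B cell identity, ran from 0.412 to 4.78 CPM with a median of 1.19 (CV 0.825), and BLNK, an adaptor of the receptor, ran from 1.59 to 9.64 CPM with a median of 2.26 (CV 0.799). PAX5 peaked in bird 8450 and BLNK in bird 8443. XBP1, the factor of antibody secretion that many secretory cells use, was the most even (CV 0.256, 0.127 without bird 8435), with 507 CPM in bird 8435 and at most 314 elsewhere. PRDM1 (CV 1.09) and BLK (CV 1.17) had the largest CVs, both with bird 8448 on top. Of 10 eosinophil and basophil markers only 4 had a row, and 3 of these had a mean CPM of at least 1. KIT, the receptor for stem cell factor, ran from 42.6 to 151 CPM with a median of 77.9 (CV 0.397), and HDC, the histamine-making enzyme, ran from 5.70 to 88.7 CPM with a median of 26.2 (CV 0.706, 0.449 without bird 8446), high in bird 8446 and low in bird 8450.

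**Figure D4:**
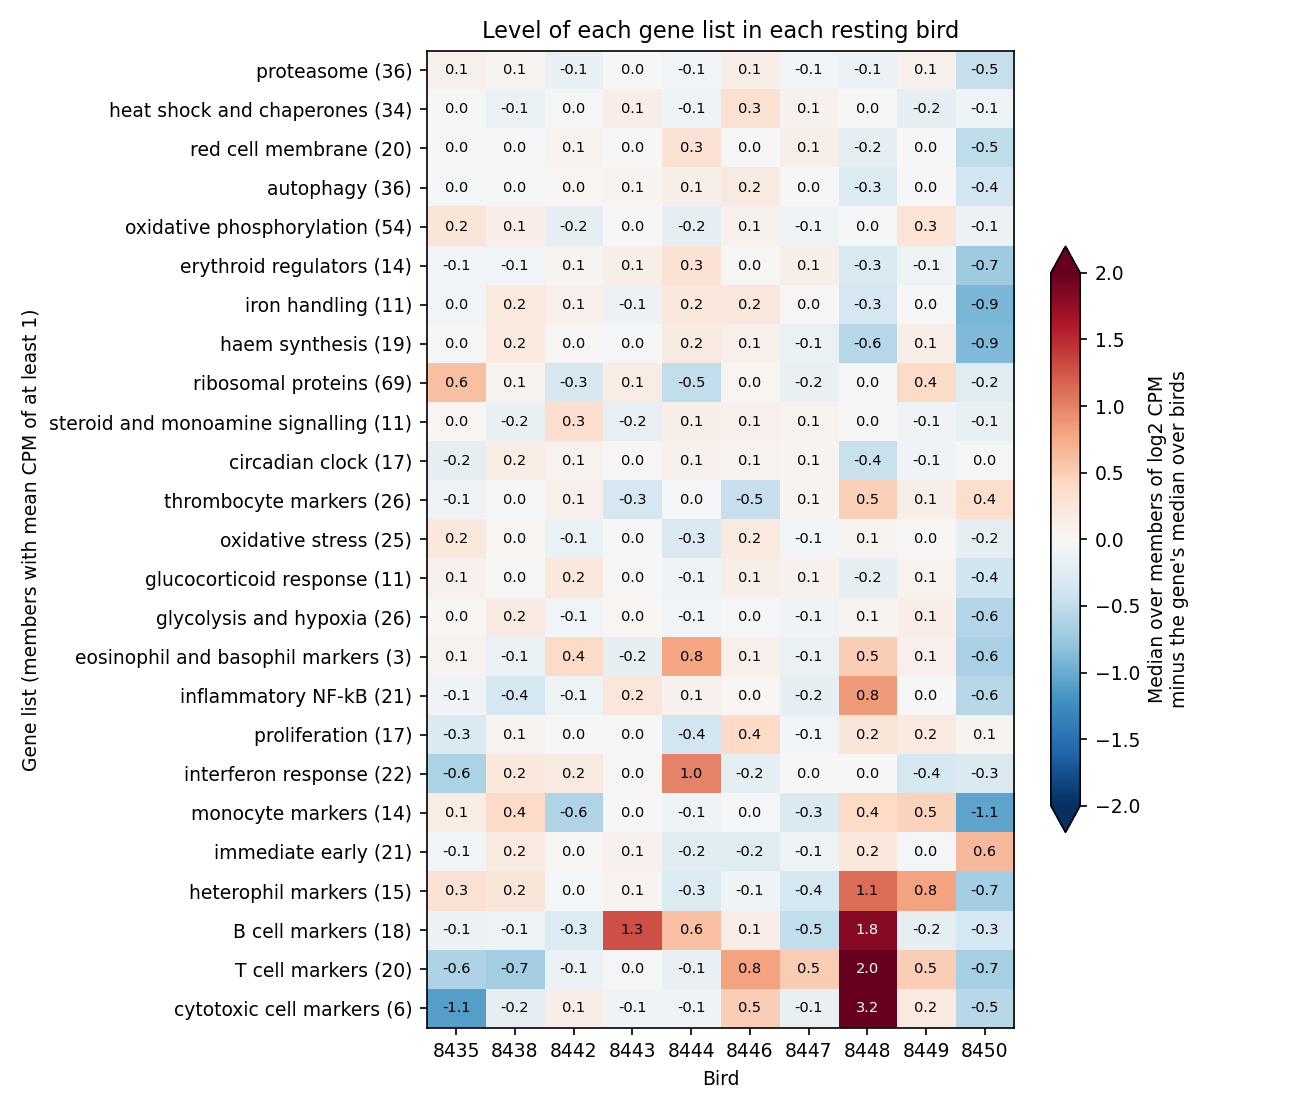
Level of 25 gene lists (rows, number of members with a mean CPM of at least 1 in brackets) in each of 10 birds (columns), as the median over members of log2 CPM minus the gene's median over birds, with 0.1 CPM added; blue is below and red above 0, and values past the ends of the colour bar take its end colours. Cytotoxic and T cell markers stand at 3.2 and 2.0 in bird 8448, haem and iron genes at −0.9 in bird 8450, ribosomal proteins at 0.6 in bird 8435 and interferon response genes at 1.0 in bird 8444.

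Ribosomal protein genes moved together from bird to bird. The 69 members above 1 CPM had a median CV of 0.318, against 0.340 over all genes. The median member averaged 241.5 CPM, and all genes of 100 to 1000 CPM had a median CV of 0.241. Between pairs of members the median Spearman's rho over birds was 0.685, against 0.006 over all pairs of genes. RPSA ran from 731 to 1147 CPM with a median of 970.1 (CV 0.147, the smallest of the list) and RPL23A ran from 577 to 1664 CPM with a median of 854 (CV 0.347, 0.196 without bird 8435). RPS28 had the largest CV at 0.593 (10.3, 23.9 and 56.7 CPM (lowest, median and highest bird)), and RPL36 stood at 239 CPM in bird 8449 and at most 132 in the others (CV 0.469, 0.243 without bird 8449). Bird 8435 held the highest value of 41 of 69 members and bird 8444 the lowest of 30. The summed level was 33577 CPM in bird 8435, a median of 21890.2 and 15100.2 in bird 8444. These birds kept the ends of the order with plain library totals. Counts of ribosomal protein genes are uncertain where reads could be shared with near-identical copies.

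Interferon response genes showed the reverse pair of birds by the list's median, though not by the summed level. Of 23 members with a row, 22 exceeded 1 CPM, with a median CV of 0.487 and a median rho between members of 0.479. B2M, the light chain of MHC class I, ran from 1645 to 4733 CPM with a median of 3210.0 (CV 0.279). IRF1, a transcription factor that interferon induces, ran from 241 to 2183 CPM with a median of 899.5 (CV 0.636), lowest in bird 8449. RSAD2, an antiviral enzyme known as viperin, ran from 33.5 to 785 CPM with a median of 243 (CV 0.783), and USP18, a brake on interferon signalling, ran from 0.679 to 22.6 CPM with a median of 7.05 (CV 0.873). Birds 8435 and 8444 marked the low and the high end for both of the last. In all, 15 of 22 members were highest in bird 8444 and 8 were lowest in bird 8435, also the lowest bird by the list's median. The summed level was 12054 CPM in bird 8444 and 5953 in bird 8435, but lowest in bird 8450 at 4951. IRF7, a further interferon regulatory factor, was the most even (CV 0.225). IFITM10 went its own way, with 18.4 CPM in bird 8450 and at most 3.48 elsewhere (CV 1.25, 0.375 without bird 8450). The list's median CV was 0.482 without birds 8450 and 8448, about as large as with them.

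Inflammatory NF-kB genes had 21 members above 1 CPM, of 29 with a row, and a median CV of 0.466. The value was 0.348 without birds 8450 and 8448. IRAK2, a kinase of Toll-like receptor signalling, was the most even at 155, 207 and 279 CPM (lowest, median and highest bird) (CV 0.172). CHUK, a kinase that activates NF-kB, ran from 22.8 to 58.7 CPM with a median of 29.6 (CV 0.335). NOS2, inducible nitric oxide synthase, stood at 20.7 CPM in bird 8448 and at most 4.87 elsewhere (CV 1.06, 0.245 without it), and NFKBIZ ran from 0.601 to 8.54 CPM with a median of 2.51 (CV 0.801), highest in bird 8435. Bird 8448 was highest in 12 of 21 members, and 9 were lowest in bird 8450. Bird 8450 was no longer the lowest by the list's median with plain library totals. TLR5, the receptor for flagellin, had 0 counts in all 10 birds.

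Immediate early genes, which answer stimulation within minutes, had their highest sum in bird 8450. Of 29 with a row, 21 exceeded 1 CPM, with a median CV of 0.557, 0.490 without bird 8450 and 0.370 without birds 8450 and 8448. Without bird 8450 the median over all genes was 0.289. GADD45B, a stress-induced gene, stood at 2594 CPM in bird 8450, at 1473 in the second bird and at a median of 747 (CV 0.723). FOS ran from 107 to 484 CPM with a median of 178 (CV 0.543), and EGR1 ran from 0.998 to 38.6 CPM with a median of 6.09 (CV 1.26, 0.678 without bird 8450). Both are transcription factors of this first wave, and both peaked in bird 8450. NR4A3, a nuclear receptor of the same wave, ran from 0.137 to 5.42 CPM with a median of 0.959 (CV 0.997) and was highest in bird 8435. BTG1, an antiproliferative factor, was the most even (CV 0.18). Bird 8450 had the highest value in 9 of 21 members and the lowest in 5. The sum was 4046 CPM there, of which GADD45B made up 2594, against 2111 in the second bird. EGR4 and ARC had 0 counts in all 10 birds.

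Glucocorticoid response genes had 11 members above 1 CPM and a median CV of 0.351. PDK4, a kinase that restrains pyruvate oxidation, ran from 391.9 to 922 CPM with a median of 733 (CV 0.269), and DDIT4, an inhibitor of mTOR, ran from 123 to 514 CPM with a median of 238 (CV 0.423). PDK4 was lowest and DDIT4 highest in bird 8450. NR3C1, the glucocorticoid receptor, ran from 73.1 to 168 CPM with a median of 116 (CV 0.288). TSC22D3, a mediator known as GILZ, was the most even (CV 0.178), and IRS2, an insulin receptor substrate, the least (3.24, 8.73 and 25.3 CPM (lowest, median and highest bird), CV 0.675, 0.379 without bird 8447), with bird 8447 far above the next at 10.6 CPM. FKBP5 averaged 0.844 CPM, and MC2R, the receptor for corticotropin, had 0 counts in all 10 birds.

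The circadian clock list held both even and uneven genes. CRY1, a repressor of the clock, had a CV of 0.0591, under TMM the smallest of all 4184 symbol genes with a mean CPM of at least 10 (217, 248 and 267 CPM (lowest, median and highest bird)). With DESeq2 size factors ABCF3 was smallest, with TMM over all libraries VCP and with totals without the 10 top genes WDR33, and with plain library totals the CV of CRY1 was 0.141. Under TMM, all birds but 8448 lay between 238 and 267 CPM. CRY2 had a CV of 0.133 and CLOCK one of 0.166. PER3 ran from 102 to 326 CPM with a median of 206 (CV 0.331) and PER2 ran from 48.1 to 145 CPM with a median of 106 (CV 0.273). Both period genes were lowest in bird 8448 and highest in bird 8450, as was NFIL3, a repressor driven by the clock, at 153, 237 and 534 CPM (lowest, median and highest bird). BHLHE40 spread the most (CV 0.921, 17.8 CPM in bird 8442 and at most 9.87 elsewhere). The 17 members above 1 CPM had a median CV of 0.331, and 0.225 without birds 8450 and 8448. The time of day at which birds were bled is not given in the labels.

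Genes of steroid and monoamine signalling were mostly at low levels. Of 33 with a row, 11 (33.3%) had a mean CPM of at least 1, where 42.4% of all rows did. The other 22 lay below, among them ESR1, an oestrogen receptor (0.115 CPM), and HTR1A, SLC6A2 and DRD2 had 0 counts in all 10 birds. ADRB1, the beta-1 adrenergic receptor, ran from 107 to 186 CPM with a median of 132 (CV 0.196). SLC6A4, the serotonin transporter, which platelets carry in mammals, ran from 23.6 to 44.7 CPM with a median of 32.5 (CV 0.209). Both were within a doubling over the 10 birds. STS, steroid sulphatase, ran from 35.5 to 193 CPM with a median of 98.1 (CV 0.485), and HSD17B7 stood at 13.8 CPM in bird 8450 and at most 5.46 elsewhere (CV 1.19, 0.704 without it).

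Proteasome and chaperone genes, which break down and fold proteins, had the lowest median CVs of the 25 lists over 10 birds. Without bird 8450 iron genes were lower, at 0.171, against 0.202 in the proteasome and 0.218 in the chaperone list. Proteasome genes, 36 above 1 CPM, had a median CV of 0.243, and 4 of 36 lay above the median of all genes. PSMD9, an assembly chaperone of the proteasome, ran from 1000.2 to 2403 CPM with a median of 1542 (CV 0.241). PSMC1, an ATPase subunit of its cap, was the most even (CV 0.133) and PSMG2, an assembly chaperone near the 1 CPM limit, the least (CV 0.527, 0.321 without bird 8448). Chaperones, 34 above 1 CPM, had a median CV of 0.252. DNAJB4 ran from 954 to 1409 CPM with a median of 1285 (CV 0.115) and DNAJB6 ran from 879.7 to 1662 CPM with a median of 1114 (CV 0.202), both J-domain partners of Hsp70. DNAJC7 was the most even with a CV of 0.0947. HSP90AA1 ran from 102 to 506 CPM with a median of 224 (CV 0.545) and HSPH1 ran from 4.36 to 28.7 CPM with a median of 15.6 (CV 0.579). Both were highest in bird 8446, which held the highest value of 13 of 34 members. HSP90AB1, the constitutive Hsp90, had the largest CV of the list and stood at 98.1 CPM in bird 8450 and at most 38.7 elsewhere (CV 1.013, 0.604 without it). CRYAB, a small heat shock protein, had 0 counts in all 10 birds.

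Autophagy genes had a median CV of 0.268 in 36 members. LAMP1, a lysosomal membrane protein, ran from 581 to 1464 CPM with a median of 1171 (CV 0.2, 0.0991 without bird 8450). ATG3, an enzyme that attaches LC3 to membranes, was the most even (CV 0.117). Bird 8450 was lowest in 17 of 36 autophagy and 17 of 36 proteasome genes, though it was not the lowest bird by either list's median with plain library totals.

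Oxidative phosphorylation genes, which mature mammalian red cells no longer use, were present in all birds. The 54 members had a median CV of 0.277. SDHA, the flavoprotein of complex II, ran from 182 to 300.0 CPM with a median of 241 (CV 0.161), and ATP5F1B, the catalytic chain of ATP synthase, ran from 153 to 328 CPM with a median of 185 (CV 0.288). SDHC, a membrane anchor of complex II, spread the most (10.8, 23.4 and 55.4 CPM (lowest, median and highest bird), CV 0.553) and ATP5IF1, an inhibitor of ATP synthase, the least (CV 0.12). Bird 8449 was highest in 14 of 54 and bird 8446 in 10, and birds 8444 and 8450 were lowest in 18 each. By the list's median, bird 8444 was lowest under TMM and with plain library totals. Bird 8450 was the highest bird with plain totals, at 0.20, against −0.12 under TMM. Glycolysis and hypoxia genes had a median CV of 0.382 in 26 members, 0.246 without birds 8450 and 8448. EPAS1, a hypoxia-inducible factor, ran from 159 to 675 CPM with a median of 459 (CV 0.443), and PGAM1, phosphoglycerate mutase, was the most even at 70.1, 80.4 and 92.7 CPM (lowest, median and highest bird) (CV 0.0961). GAPDH, often used as a reference gene, ran from 17.5 to 76.3 CPM with a median of 33.6 (CV 0.491). It was lowest in bird 8450 and highest in bird 8448, and 10 of 26 members of the list peaked in bird 8448.

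Antioxidant genes had a median CV of 0.343 in 25 members. NFE2L2, the master regulator of the group, stood at 903 CPM in bird 8450 and between 1742 and 2210.3 in the others (CV 0.204, 0.0898 without bird 8450). GPX1, a glutathione peroxidase, ran from 1058 to 1799.7 CPM with a median of 1461 (CV 0.173), the most even of the list. PRDX4, a peroxiredoxin, ran from 6.14 to 159 CPM with a median of 46.2 (CV 0.811). CAT, catalase, stood at 13.6 CPM in bird 8448 and at most 6.35 elsewhere, and MSRA, a methionine sulphoxide reductase, at 57.995 CPM in bird 8450 and at most 15.1 elsewhere. Their CVs were 0.981 and 0.94, against 0.707 without bird 8448 and 0.174 without bird 8450.

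Cell division genes lay on both sides of a mean of 1 CPM. Of 31 with a row, 17 (54.8%) had a mean CPM of at least 1, where 42.4% of all rows did, and 14 lay below. All rows include 8073 LOC rows, and only 1448 LOC or tRNA rows reached 1 CPM, so 42.4% is not the share of symbol rows. The share of 54.8% is therefore read as neither high nor low. The median member of the 17 averaged 3.26 CPM, and their median CV was 0.476. MKI67, the proliferation antigen, ran from 0.612 to 4.51 CPM with a median of 1.44 (CV 0.674, 0.381 without bird 8448), and TOP2A averaged 0.618 CPM. PCNA, the sliding clamp of replication and repair, was well above the rest of its group and ran from 182 to 921 CPM with a median of 299 (CV 0.576, 0.366 without bird 8450). TPX2, a spindle factor, ran from 37.1 to 154 CPM with a median of 62.8 (CV 0.473). Both were lowest in bird 8449 and highest in bird 8450. MCM2, a replicative helicase subunit, stood at 9.18 CPM in bird 8446 and at most 1.61 elsewhere (CV 1.67, 0.607 without bird 8446), and CDC6, a loader of that helicase, at 18.7 CPM in bird 8450 and at most 6.22 elsewhere (CV 0.814, 0.318 without bird 8450). KIF11, a spindle motor, was the most even (CV 0.259).

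Among all symbol genes with a mean CPM of at least 10, after CRY1 the most even were ABCF3, a protein linked to translation (CV 0.0617), and VCP, the ATPase that extracts ubiquitinated proteins (CV 0.0626). ABCF3 stood at 70.9, 75.3 and 84.1 CPM (lowest, median and highest bird) and VCP at 92.5, 103 and 114 CPM (lowest, median and highest bird). The 10 birds lay close together in both genes. The rest of the first 12 were ZC3H7A, UBP1, a transcription factor, SFPQ, a splicing factor, INTS11, the endonuclease of the Integrator complex, KLHDC10, PRKAR1A, a regulatory subunit of protein kinase A, HNRNPK, an RNA-binding protein, SKP2, a ubiquitin ligase subunit, and EIF4E2, a cap-binding protein. Their CVs ran from 0.0688 to 0.0773, where counting alone gives 0.00990 to 0.0183. The CV of HNRNPK was 0.0442 without bird 8449. The median of the 4184 genes in that pool was 0.260. These small CVs depend on the scaling. With plain library totals the 12 genes had CVs of 0.0871 to 0.199, still below that scaling's pool median of 0.266, but the largest of them, KLHDC10, ranked 1122 of the pool.

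The genes at the other end were mostly high in a single bird. SHROOM2, an actin-binding protein, stood at 266 CPM in bird 8442 and at most 4.68 in the other 9 (CV 2.83, 0.294 without bird 8442). KLHDC7A, IGSF21, HGH1, FBF1, a centriole protein, C18H7orf50, ESYT1, a lipid transfer protein, DPF2, a subunit of the BAF chromatin complex, and ARID3B, a DNA-binding protein, were all highest in bird 8450. IGSF21, an immunoglobulin superfamily member, stood there at 1668 CPM and at most 135 elsewhere, and HGH1 at 809.5 and at most 74.3. KLHDC7A stood at 104 CPM in bird 8450 and at 0 counts in bird 8448, where 3 counts, the limit that a count of 0 allows, are 0.0260 CPM. For these 8 genes the CV of 1.63 to 2.59 over 10 birds became 0.163 to 0.98 without bird 8450. TDRD12, a Tudor protein of the piRNA pathway, stood at 93.2 CPM and MICALL2, a Rab effector, at 74.2 CPM in bird 8448, against at most 23.4 and 8.71 elsewhere. Without bird 8448 the CV of MICALL2 fell from 1.84 to 0.357, while that of TDRD12 stayed large, at 1.49 against 2.10 over 10 birds.

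DBT, the core enzyme of the branched-chain keto acid dehydrogenase, was high in 3 birds rather than in a single bird. It stood at 100.2, 91.7 and 128 CPM in birds 8443, 8447 and 8448, and between 0.589 and 1.61 CPM in the other 7 (CV 1.58). The 10 birds thus fell into a high set of 3 and a low set of 7 with nothing in between. LRRC39, its neighbour in the gene table, had 7.69, 9.16 and 12.5 CPM in the same 3 birds and at most 0.314 in the others.

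Set side by side, the 25 lists differed in median CV. The lowest were proteasome at 0.243, chaperones at 0.252, red cell membrane at 0.265, autophagy at 0.268, oxidative phosphorylation at 0.277, erythroid regulators at 0.287, iron at 0.295 and haem at 0.308. The highest were cytotoxic at 1.49, T cell at 0.828, B cell at 0.801 and heterophil markers at 0.631. Immediate early genes at 0.557, monocyte markers at 0.515 and interferon response genes at 0.487 followed. Without bird 8448 the cytotoxic list stood at 0.568 and the T cell list at 0.595. The leukocyte lists were also among those of fewest counts: the median member averaged 2.66 CPM in the cytotoxic, 3.52 in the T cell, 4.27 in the B cell and 4.76 in the heterophil list. The median CV of all genes of 1 to 10 CPM was 0.444, which is the value to set beside them. The red cell membrane list had a median member of 562.8 CPM, and all genes of 100 to 1000 CPM had a median CV of 0.241. Interferon response genes stood out from this order, with a median member of 159.8 CPM and a CV of 0.487. The part of abundance in the order of the lists was not tested.

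**Figure D5:**
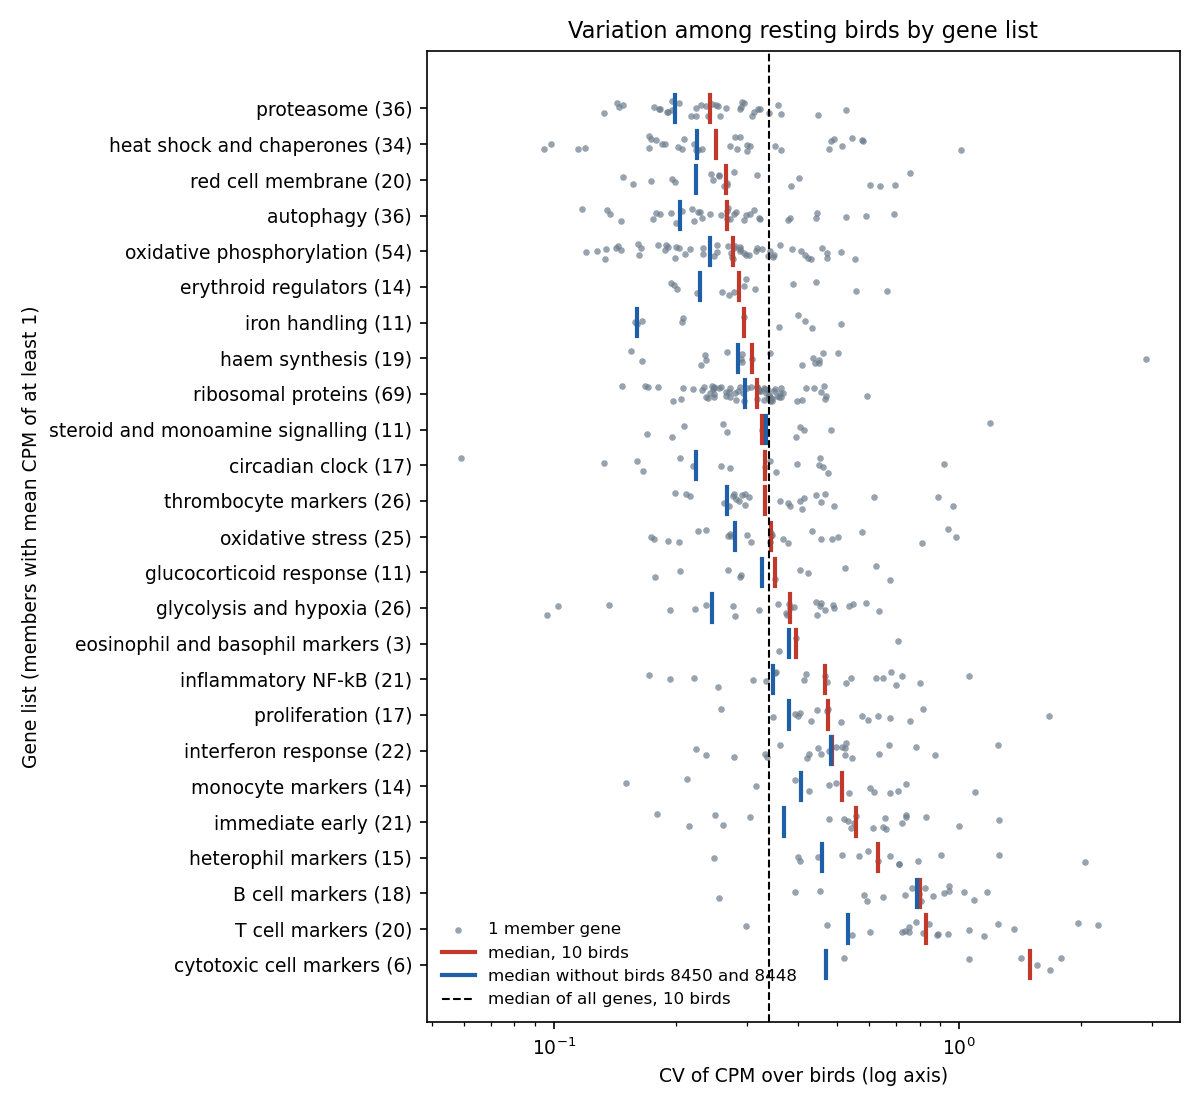
CV over birds (horizontal, log axis) of the members of 25 gene lists (grey points, 1 per gene), with the list's median over 10 birds in red and without birds 8450 and 8448 in blue; the dashed line is the median of all 8964 genes, 0.340. Medians run from 0.243 (proteasome) to 1.49 (cytotoxic cell markers), and that of the last list lies at 0.470 without the 2 birds.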

How the data were processed

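For each library the authors deposited a table of raw counts by gene, made from paired-end reads. Reads were trimmed with fastp and aligned with STAR, per the submitters' processing notes. Not given in the sources used here are their versions, the counter, its strand setting, the annotation and the build. All values are whole, and reads assigned to no gene have no row. Of 21141 rows, 20961 carry names found in a RefSeq gene table of the species, used for names and neighbours only, 180 are tRNA copies, and 8073 are LOC rows. Counts of near-identical copies, overlapping and antisense genes are uncertain.

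Counts of the 10 baseline libraries, taken by their labels, were scaled with TMM in edgeR 4.0.16 (R 4.3.3) and given as CPM. The CV was the sample SD over the mean across birds, for genes with a mean CPM of at least 1. Simulated counts of known CV were run first. The check there was made on the CV after removal of the part that counting gives, not on the plain CV. Log2 CPM for correlations used a prior count of 1. No group was compared and no p computed. Genes were named by share of counts (15), by largest and smallest CV among symbol genes of at least 10 CPM (12 each), by level and CV within the 25 lists, as defining markers, or as list members at 0; FECH, RHAG, EPB42, SLC40A1, TAL1, LMO2, NR3C1, CLOCK, CRY2, PER2, PER3, SLC6A4, RSAD2, HSP90AA1, GAPDH, PRDX4, MKI67, ESR1, ALAS1, EPB41, FKBP5, LRRC39, TOP2A and UBE2H were added as well-known members after their values were seen. A few genes the rule takes are not reported here. The members and gene lists were chosen with earlier results of these data known. Alternatives were other scalings (plain totals, DESeq2 1.42.0 size factors, TMM over all 33 libraries, totals without the 10 top genes), other filters, other measures of spread, and birds left out. Intervals and limits cover counting error only.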

Additional observations from a re-analysis of the deposited data

Results flagged for a closer look

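In a group of 10, the gap between the highest or lowest value and its nearest neighbour was set against the whole range. A bird was taken to stand apart when the gap exceeded 0.466 of that range. Chance gives this in about 1 of 20 groups when values are normally distributed. The distribution of CPM was not tested, so the shares below cannot be set against that rate. Of 8964 genes, 2107 (23.5%) had a bird far above the others and 110 (1.23%) a bird far below; 1035 and 92 of these were bird 8450 and 608 and 9 bird 8448. Among 179 values of the report, 61 stood apart, 57 of them levels of named genes. Many named genes were chosen for a large CV, which a single high bird can give. Counts of named genes here and below therefore cannot be set against the shares of all genes.

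Bird 8450 stood far above the others in 21 named genes. In CPM, these were ATRX 12852, GADD45B 2594, IGSF21 1668, HGH1 809.5, NFIL3 534, FBF1 287, ARID3B 269, GATA3 150.4, C18H7orf50 107, KLHDC7A 104, HSP90AB1 98.1, DPF2 86.7, ESYT1 64.6, MSRA 57.995, EGR1 38.6, ZFPM1 23.3, CDC6 18.7, IFITM10 18.4, HSD17B7 13.8, BCL11B 12.7 and FCER1G 9.03. It stood far below in NFE2L2 at 903 CPM (next bird 1742), LAMP1 at 581 (1073), TPM3 at 88.3 (142) and LOC134417358 at 8202 (15397). Its TMM factor of 1.301 and its summed level of immediate early genes, 4046 CPM (next bird 2111), stood apart as well.

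Bird 8448 stood far above the others in 19 named genes. The leukocyte genes were CD74 426, RAC2 69.1, ITGB2 53.3, TBX21 22.9, CD8B 20.0, CD8A 19.9, IL2RB 19.6, ALOX5 19.0, LCK 17.1, EOMES 9.71, BLK 7.34 and GFI1 4.86 CPM. The others were TDRD12 93.2, MICALL2 74.2, SPTBN1 39.7, FLVCR1 36.3, NOS2 20.7, CAT 13.6 and PSMG2 2.67 CPM. Its summed cytotoxic markers stood at 74.1 CPM (next bird 12.6), and its total of 103.7 M counts was the highest (next bird 88.8 M).

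The other birds stood apart in few genes. Bird 8435 was far above in RPL23A (1664 CPM), XBP1 (507), ITGB3 (203) and LGMN (12.9). Bird 8442 was so in SHROOM2 (266) and BHLHE40 (17.8), bird 8446 in HDC (88.7) and MCM2 (9.18) and bird 8447 in IRS2 (25.3). Bird 8449 was far above in LOC134429932 (19971) and RPL36 (239) and far below in HNRNPK (86.6) and ZC3H7A (69.7).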

How the results depend on the processing

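Here, values without a bird were scaled and filtered anew. Leaving out each bird in turn gave a median CV of 0.286 to 0.345, 8841 to 8993 genes with a mean CPM of at least 1, 242 to 476 genes with a CV of at least 1 and a share of the 10 top genes of 35.3% to 38.3%; the count of 242 is that without bird 8450. Without birds 8450 and 8448, an alternative chosen after seeing the data, the median CV was 0.261 and 178 genes had a CV of at least 1. CVs of named genes without 1 bird, and those of the most even genes under other scalings, were also added after seeing the data. The robust CV (from the median absolute deviation) had a median of 0.277. With no filter on low values the median CV was 0.608 and 5653 genes had a CV of at least 1, and with a mean of at least 5 CPM 144 genes did. The other scalings moved the median CV to 0.338 to 0.370 and the count to 421 to 624, within 1.5 times of 454.

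Of 149 genes checked, the CV moved by more than its leave-one-out SE in 25 with plain totals, in 6 with totals without the 10 top genes, in 1 with TMM over all libraries, in 0 with DESeq2 size factors, in 72 as robust CV and in 49 without the 2 birds, each in either direction. Over all settings run, B cell markers ranked 23 to 25 among the 25 lists, heterophil markers 20 to 22, proteasome 1 to 5 and autophagy 1 to 5, while ribosomal proteins ranked 2 to 13 and steroid and monoamine signalling 5 to 24 from the lowest CV. The cytotoxic list had no member at a mean of at least 5 CPM. Counts per kilobase were not run, since no transcript length was used here. No paired analysis was possible because each baseline bird gave 1 library and no groups were compared. At 74.2 M counts or more per library, 1 CPM is at least 74 counts before scaling, so depth limits mainly the genes left out.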

Other observations

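A further 19 genes split the birds as DBT did, into 2 sets of at least 2 birds with a gap of at least 8-fold between them (0.1 CPM added) and none in between. These 20 genes are 0.223% of the 8964 and were chosen after their values were seen; 16 are LOC rows, for which no role is given. LOC134429168 stood at 216.8 to 480.1 CPM in 7 birds and at no more than 0.913 in birds 8435, 8448 and 8450. LOC134429227, its neighbour, stood at 136.9 to 330.2 CPM in the same 7 birds and at no more than 0.579 in the same 3. LOC134434434 and LOC134434428 split the birds in the same way, at no less than 23.2 and 10.7 CPM in the 7 and at no more than 2.40 and 1.24 CPM in the 3.

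LOC134426892, LOC134426893, LOC134426894 and LOC134426895, which follow each other in the gene table, were high in birds 8435, 8444 and 8446. LOC134426895 stood at 30.3, 77.8 and 104.5 CPM there and at no more than 0.174 in the other 7. ABLIM3, an actin-binding protein, stood at 6.91 to 29.4 CPM in 8 birds and at 0.0907 and 0.473 CPM in birds 8443 and 8444. C2H11orf87 stood at 1.477 to 9.43 CPM in 5 birds and at no more than 0.0260 in the other 5. The deposited counts give no genotype of these birds.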
